A study of Bos taurus with 3 samples.

Results

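The genes described here encode the high mobility group (HMG) proteins of the HMGA, HMGB and HMGN families and the RNA-binding proteins IGF2BP2 and IGF2BP3, compared between fetal Gonadal Ridge Epithelial-Like (GREL) cells and adult ovarian fibroblasts. The 10 genes were listed by name, and they were chosen with their GREL against fibroblast values known, so that contrast is given for them as a description without a test. A gene was included where a probe set carried its symbol and no other. This gave 7 of the 10 genes, with 10 probe sets in all: HMGA1, HMGB1, HMGB2, HMGN1, HMGN2, HMGN3 and IGF2BP3. HMGA2, HMGB3 and IGF2BP2 had no probe set of that kind and were not analysed here. Where a gene had more than 1 probe set, the one of highest mean over the arrays gave its value, and the same was done for all 9155 genes with a symbol.

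HMG proteins are small and abundant chromatin proteins that change how DNA is bent and how tightly it is packed. HMGA proteins hold AT-rich DNA through AT-hooks and are made chiefly in the embryo, in cultured dividing cells and in tumours. HMGB proteins bend DNA with their HMG boxes, and HMGN proteins bind the nucleosome itself and compete with the linker histone H1. The IGF2BP family binds mRNAs, among them those of IGF2, MYC and ACTB, and affects their stability, transport and translation. IGF2BP1 and IGF2BP3 are known as oncofetal genes, active in the fetus and in tumours and low in most adult tissues, and several genes of both groups are repressed by the let-7 microRNAs, whose maturation is blocked by LIN28.

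RNA came from 3 *Bos taurus* cultures, each hybridized to 1 array. Of these, 2 were GREL isolates, polygonal cells grown from fetal ovaries, for which the labels give 130 days of gestation in both and the paper a slightly younger age in one. The remaining culture was spindle-shaped cells taken from the ovarian medulla of an adult over 1 year of age. No treatment is described, and the labels give the same medium with fetal calf serum for all. They have cells grown to partial confluence, which the paper states for the fetal cultures and not for the fibroblasts, so the density of the fibroblasts at harvest is not known here. The isolates were clonally enriched, no second culture of either was arrayed, and the fibroblasts are a single culture, so fetal against adult age, epithelial-like against fibroblastic cell type and the character of the 1 fibroblast culture cannot be told apart. Of 10 measured epithelial markers 7 were higher in both isolates, 4 of them by over 3-fold in each, and 1 was lower in both. DSP and DSG2 were listed too but had no value by symbol here, though the paper reports both as higher in the isolates. The lower one was CLDN1, at 9.1 in fibroblasts against 8.5 and 6.9 in isolates 1 and 2 (named after its values were seen). CDH1, likewise picked, was above the fibroblasts in isolate 1 and below them in isolate 2. Of the 4, KRT19 alone reached the background level defined below, and only in the isolates. Keratin 19 (KRT19) led these markers, at log2 7.1 in fibroblasts against 11.3 and 11.6 in isolates 1 and 2. Of 12 stromal markers 3 were over 3-fold lower in both, and none was higher in both. Of 8 granulosa markers 4 were higher and 2 lower in both isolates, none by over 3-fold. FOXL2, FSHR and CYP19A1 among them were at or below 2.0 on each array, while follistatin (FST), at 9.6 in the fibroblasts, 8.6 in isolate 1 and 8.8 in isolate 2, was bright in all cultures. Of 6 smooth muscle markers none was higher and 3 were lower in both isolates. The contractile kinase gene MYLK was over 3-fold lower in each, at 10.6, 8.0 and 7.0 in the fibroblasts and isolates 1 and 2, and actin (ACTA2), also made by cultured fibroblasts, was at 10.5, 10.4 and 10.7. Of 6 measured germ cell markers none was higher in both isolates, and KIT alone exceeded 2.5, at 5.7 in the fibroblasts. DDX4, DAZL, NANOG, DPPA3 and FIGLA were listed too but had no value here, so this panel is partial. No endothelial marker exceeded 3.0 and no blood cell marker 2.8 on any array. In such bulk RNA a change in the number of cells that express a gene and a change in its RNA per cell cannot be told apart.

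Values are log2 intensities after RMA, rounded to steps of 0.1 in the deposited table. They compare a probe set between arrays and not one gene with another. No detection calls came with them, so 49 genes of other organs served as a guide to background. Their 95th percentile was 8.22 on the fibroblast array, 7.96 for isolate 1 and 7.94 for isolate 2, a level that POMC, PRL and ALB pushed up with their bright signals. Without those 3 genes, an option added once the data had been seen, it was 5.98, 6.2 and 6.0. The former is called the background level and the latter the lower background level.

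HMGA1, the AT-hook protein measured here, gave a log2 value of 5.5 for the fibroblasts, 7.2 in GREL isolate 1 and 8.0 in isolate 2. Both isolates lay above the fibroblasts, and isolate 2 was the highest of the cultures. The isolates averaged 7.6 ± 0.57 (SD, n = 2), a difference of 2.1 on the log2 scale, or 3.25-fold and 5.66-fold in isolates 1 and 2. The gap between the isolates, 0.8, was less than the distance of the nearer isolate to the fibroblasts, 1.7. Only isolate 2 lay above the background level, while the fibroblasts lay below even the lower one, so the size of the difference is uncertain. HMGA1 ranked 134 of 9155 genes from the highest mean difference.

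HMGB1, an abundant DNA-bending protein that also acts as an alarm signal when released from cells, gave a log2 value of 7.8 for the fibroblasts, 9.4 in isolate 1 and 9.6 in isolate 2. The isolates averaged 9.5 ± 0.14 (SD, n = 2), and the difference of 1.7 amounted to 3.03-fold and 3.48-fold. The value of isolate 1 was only just over 3-fold, since its difference of 1.6 would miss that mark (1.58) if rounding had taken 1 step the other way. A second HMGB1 probe set was at 7.4 in fibroblasts against 8.7 and 9.4 in isolates 1 and 2, 2.46-fold and 4.0-fold higher. The order of the cultures was the same at both probe sets, but the gap between the isolates was 0.2 at the first and 0.7 at the second.

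HMGB2, a close relative of HMGB1 that is typical of dividing cells, was at 7.0 in the fibroblasts, 8.2 in isolate 1 and 8.9 in isolate 2. The isolates averaged 8.55 ± 0.50 (SD, n = 2), a log2 difference of 1.55, or 2.30-fold and 3.73-fold. All 3 cultures were separated, with isolate 2 again the highest. A second and much dimmer HMGB2 probe set was at 1.9, 2.1 and 3.1 in the fibroblasts and isolates 1 and 2, below the lower background level on each array, so it says little about the gene. At the brightest probe set of both HMGB genes the isolates lay above the background level and the fibroblasts below it, though above the lower one.

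The HMGN genes lay on both sides of the fibroblasts. HMGN2 was at 8.4 in the fibroblasts, 9.4 in isolate 1 and 10.2 in isolate 2, an average of 9.8 ± 0.57 (SD, n = 2) in the isolates and a log2 difference of 1.4 (2.00-fold and 3.48-fold). HMGN1, like HMGN2 a nucleosome-binding protein made in most cell types, was at 9.2 in fibroblasts against 10 and 10.1 in isolates 1 and 2. These values averaged 10.05 ± 0.07 (SD, n = 2), a smaller difference of 0.85 with nearly equal isolates (1.74-fold and 1.87-fold).

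HMGN3, the remaining HMGN gene, lay in the other direction. Its log2 value was 8.9 in the fibroblasts, 8.3 in isolate 1 and 8.5 in isolate 2, an average of 8.4 ± 0.14 (SD, n = 2) in the isolates. The difference of -0.5 amounts to 1.52-fold and 1.32-fold higher in the fibroblasts, and the isolates did not overlap the fibroblast value. HMGN1, HMGN2 and HMGN3 were above the background level on all 3 arrays. HMGB1 and the HMGN genes have many near-identical processed copies in mammalian genomes, and whether the probes also read such copies was not tested.

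IGF2BP3, the only IGF2BP gene among the 7, had the largest difference of them. It was at log2 2.9 in fibroblasts against 5.9 in each isolate, a difference of 3.0 or 8.0-fold in each. The isolates round to the same value, so their SD of 0.0 (n = 2) understates the true spread. A second IGF2BP3 probe set was at 1.7 in fibroblasts against 3.5 and 3.3 in isolates 1 and 2, 3.48-fold and 3.03-fold higher. Both probe sets therefore placed the isolates above the fibroblasts, with isolates close together. Both were below the lower background level on each array, so the size of the difference and its rank, 29 of 9155 from the highest, are uncertain. IGF2BP1, the related oncofetal gene, was at 1.4 in fibroblasts against 1.9 and 1.7 in isolates 1 and 2, near the bottom of the scale on each array.

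**Figure D1:**
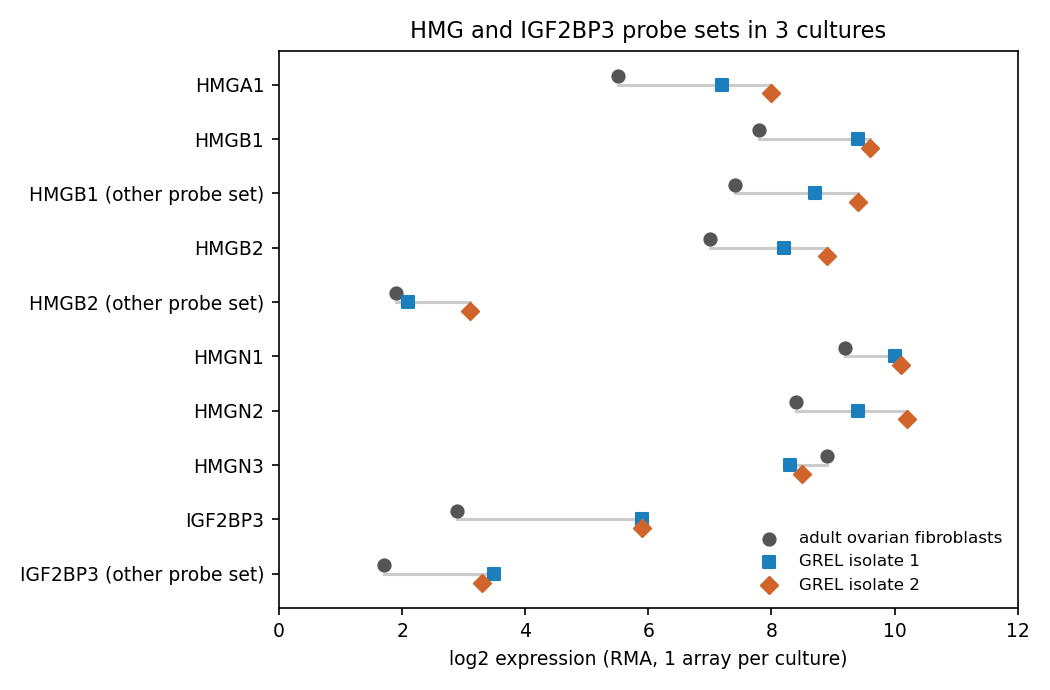
Log2 expression (horizontal axis, RMA values) of the 10 probe sets of the 7 measured genes (rows), with 1 array per culture: circles are the fibroblasts, squares isolate 1 and diamonds isolate 2, with a grey line over the range. In 9 of the 10 probe sets both isolates lie to the right of the fibroblasts, and HMGN3 is the exception, at 8.9 in the fibroblasts against 8.3 and 8.5.

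Over the 7 genes, 3 (HMGA1, HMGB1 and IGF2BP3) were over 3-fold higher in both isolates, where 2.38% of all genes were, and 0 were over 3-fold lower (2.38% of all genes). Without isolate 1 the first count was 5, with HMGB2 and HMGN2 added, and without isolate 2 it was 3. Over 2-fold higher in both were 4 of the 7, HMGB2 being added, against 5.80% of all genes. By any amount, 6 were higher in both isolates (41.6% of all genes) and HMGN3 was lower in both (33.5%). In each of the 6 the nearer isolate was farther from the fibroblasts than from the other isolate, as in 27.9% of all genes in that direction, and the same held for HMGN3 in its direction (22.7%). The median log2 difference was 1.55 over the 7 genes and 0.05 over all genes. Since the 7 were chosen on this contrast, these shares describe the choice and are no result about the genes.

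The comparison of the 2 isolates with each other was not used to choose the genes, but with 1 array for each isolate it has no test. None of the 7 genes was over 3-fold apart between the isolates, against 0.502% of all genes. Isolate 2 was above isolate 1 in 6 of the 7, where 51.4% of all genes had that order, and below it in 0 (34.7% of all genes), the isolates being equal in IGF2BP3. The genes fell apart by the size of this gap. HMGA1 and HMGN2 were 0.8 and HMGB2 was 0.7 higher in isolate 2 on the log2 scale, a gap that 5.18% of all genes reached or exceeded, 0.7 being a limit set after the values were seen. HMGB1 and HMGN3 were 0.2 and HMGN1 was 0.1 higher. The gap of HMGB1 depends on the probe set, as given above. Just 960 of the 9155 genes passed the background level on any array, against 6 of the 7. The shares of all genes given here therefore come mostly from dim genes, and none was taken among genes of like brightness.

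The cell cycle genes had the fibroblasts lowest and isolate 2 highest, the order also seen for HMGA1, HMGB1, HMGB2, HMGN1 and HMGN2. HMGN3 and IGF2BP3 did not have that order. Of 25 measured, 17 exceeded the fibroblasts by over 3-fold in each isolate and none was lower in both, with a median log2 difference of 2.30. In the fibroblasts none of the 25 exceeded the background level and 21 were under even the lower one. The higher of these levels was exceeded by 2 genes in isolate 1 and 8 in isolate 2, and by just 2 in both. The fold changes and the median are therefore uncertain in size. Isolate 2 was above isolate 1 in all 25 of them, by 0.4 to 1.2 with a median of 0.8, and in 21 the gap was at least 0.7. PCNA, the sliding clamp of DNA polymerases, was at 6.3 in fibroblasts against 8.3 and 9.0 in isolates 1 and 2, which is the same gap between isolates as that of HMGB2. The replicative helicase subunit MCM7 was at 5.8, 7.5 and 8.7 and the ubiquitin-conjugating enzyme UBE2C at 6.6, 8.4 and 9.2 in the fibroblasts and isolates 1 and 2. RRM2, a subunit of the ribonucleotide reductase that makes DNA precursors, was at 5.3 in the fibroblasts, 7.6 in isolate 1 and 8.5 in isolate 2. HMGA1, HMGB2 and HMGN2 had the same order and about the same isolate gap. However, the order against the fibroblasts follows from how the 7 genes were chosen, and these 3 were set apart by the gap itself. The cell cycle list was also chosen with earlier results known, so the likeness is a description only. The part of cell division in the values of the HMG genes was not tested.

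**Figure D2:**
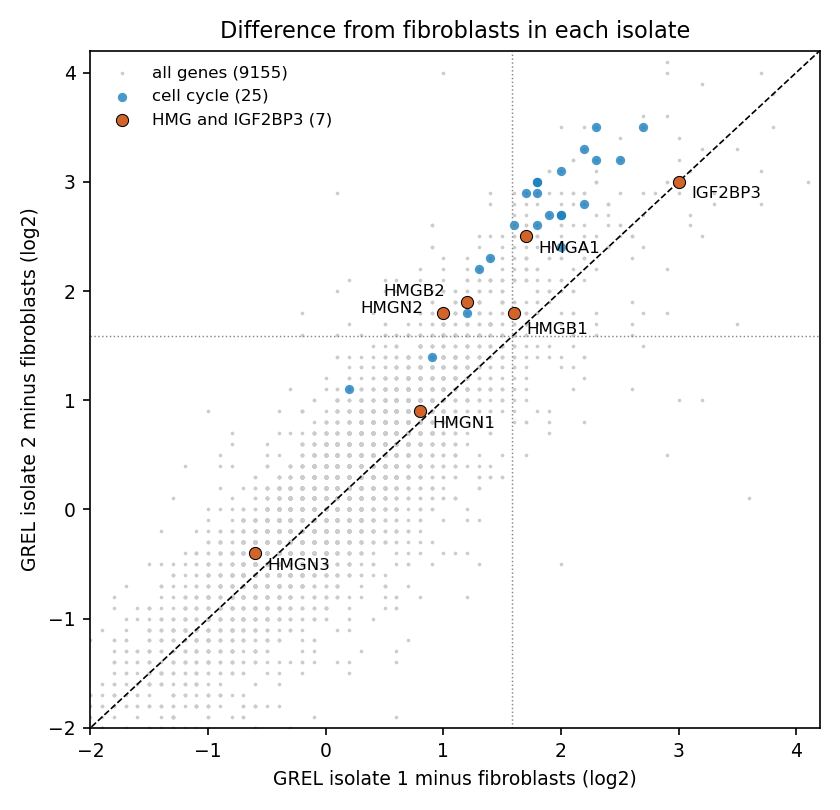
Log2 difference from the fibroblasts in GREL isolate 1 (horizontal axis) and isolate 2 (vertical axis) for all 9155 genes (grey points, 215 of them outside the axes), the 25 cell cycle genes (blue) and the 7 HMG and IGF2BP3 genes (orange, named). The dashed line marks equal isolates and the dotted lines mark 3-fold, and HMGA1, HMGB2 and HMGN2 lie above the dashed line by 0.7 to 0.8 while IGF2BP3 lies on it at 3.0.

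Other genes of chromatin structure were measured from a list of histone variants, linker histones, cohesin, condensin, lamina and histone chaperone genes. Of 32 such genes, 26 were higher in both isolates and 2 were lower in both, and the median log2 difference was 0.85. In both isolates 5 were over 3-fold higher and 1 was over 3-fold lower. The 5 were H2AZ1, NCAPH, LMNB1, ASF1B and CHAF1A, of which all but H2AZ1 are named after their values were seen. NCAPH had 3 probe sets and ASF1B 2, and with the mean over probe sets the count was 4 in place of 5. H2AZ1, a histone H2A variant, was at log2 8.5 in fibroblasts against 10.3 and 10.5 in isolates 1 and 2, above the background level in each culture. The condensin subunit NCAPH was at 2.7 in fibroblasts against 5.2 and 6.1 in isolates 1 and 2, and the histone chaperone ASF1B at 3.4 and at 5.1 and 6.2. NCAPH, LMNB1, ASF1B and CHAF1A were below the background level on each array, and below the lower one in the fibroblasts and isolate 1, so their fold changes are uncertain.

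The gene that was over 3-fold lower was H1-2, a linker histone of the kind that HMGN proteins compete with on nucleosomes, likewise picked after its values were seen. It was at 5.2 in fibroblasts against 2.5 and 2.7 in isolates 1 and 2, below the lower background level on each array. LMNA, a lamin of the nuclear envelope, was at 6.8 in fibroblasts against 7.8 and 9.1 in isolates 1 and 2, but its second probe set was at 6.7, 6.0 and 7.1 in the same order, so its direction in isolate 1 depends on the probe set. At the low end of the genes above the background level, H3-3B, which encodes the replacement histone H3.3, was at 8.9 and at 9.5 and 9.6, and the histone-binding protein ANP32B at 7.9 and at 8.5 and 8.6.

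The other genes of the HMG superfamily lay on both sides of the fibroblasts. Of 18 other HMG-box and HMGN genes measured, 7 were higher and 6 lower in both isolates, with a median log2 difference of 0.08, close to that of all genes. HMGN4 was at 5.2 in fibroblasts against 5.5 and 5.0 in isolates 1 and 2, on either side of the fibroblast value. SSRP1, the HMG-box subunit of the histone chaperone FACT, was at 6.9 in fibroblasts against 7.7 and 8.5 in isolates 1 and 2, with a gap of 0.8 between the isolates. Its dimmer probe set was at 2.5, 2.6 and 2.4. The 2 genes over 3-fold higher were TCF7 and LEF1, transcription factors of the Wnt pathway with an HMG box, named after their values were seen. TCF7 was at 1.7 in fibroblasts against 5.2 and 5.0 in isolates 1 and 2, and LEF1 at 2.4 and at 4.6 and 5.2, below the lower background level on each array.

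The list of targets and mRNA-binding partners of the IGF2BP proteins also held genes of RNA methylation and its readers, such as METTL3, FTO and YTHDF1. Of its 27 measured genes, 19 were higher and 6 lower in both isolates, with a median log2 difference of 0.50. The 1 gene over 3-fold higher was IGF2, the fetal growth factor whose mRNA gave the family its name. Its probe set of highest mean was at 2.5 in fibroblasts against 6.9 and 6.0 in isolates 1 and 2. The 3 other probe sets of IGF2 gave differences of 1.4 and 0.3, of 0.2 and 0.0 and of 0.0 and 0.1 in isolates 1 and 2. All 3 were below the lower background level on each array, so they say little about the gene. In the fibroblasts the brightest probe set was below it too, so the difference rests on 1 probe set and is uncertain in size. MYC, a transcription factor whose mRNA IGF2BP proteins protect, was at 7.0 in fibroblasts against 7.9 and 7.2 in isolates 1 and 2.

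CD44, a hyaluronan receptor and another target, was on the other side, at 9.2 in fibroblasts against 8.3 in each isolate. Of the RNA-binding partners, the splicing regulator KHDRBS1 was at 7.5 in fibroblasts against 8.7 and 8.9 in isolates 1 and 2. Its dimmest probe sets, at 2.5 and 3.0 in the fibroblasts, had isolates below the fibroblasts, and its other 2 had isolates above them. HNRNPU, a nuclear matrix protein that joins IGF2BP complexes, was at 8.2 in fibroblasts against 8.9 in each isolate. HNRNPC, which binds nascent transcripts, was at 8.7 and at 8.4 and 8.5.

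The LIN28 and let-7 axis held 15 measured genes, of which 9 were higher and 4 lower in both isolates, with a median log2 difference of 0.25. None was over 3-fold higher, and 1, the cyclin CCND2, was over 3-fold lower, at 7.7 in fibroblasts against 5.9 and 5.2 in isolates 1 and 2 (named after its values were seen). THBS1, a matrix glycoprotein, was at 11.2 in fibroblasts against 10.5 and 9.5 in isolates 1 and 2. Of its 5 other probe sets 3 had lower isolates too and 2 had higher ones. LIN28A, LIN28B and H19 were not analysed here for want of a probe set under their symbol, nor were the let-7 microRNAs themselves.

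Of 9 genes listed as receptors and partners of HMGB1, inside or outside the cell, 2 were higher and 4 lower in both isolates. Their median log2 difference was -0.10, and none lay above the background level on any array. The 2 that were over 3-fold lower, named after their values were seen, were THBD, a surface protein that binds HMGB1, at 6.0 in fibroblasts against 2.0 and 3.8 in isolates 1 and 2, and the chemokine CXCL12, at 4.3 and at 2.4 and 2.5. AGER, TLR2 and TLR4, receptors of HMGB1, were likewise picked after their values were seen. AGER and TLR2 were at or below 3.0 on each array. TLR4 was at 3.7 in fibroblasts against 2.7 and 2.6 in isolates 1 and 2.

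**Figure D3:**
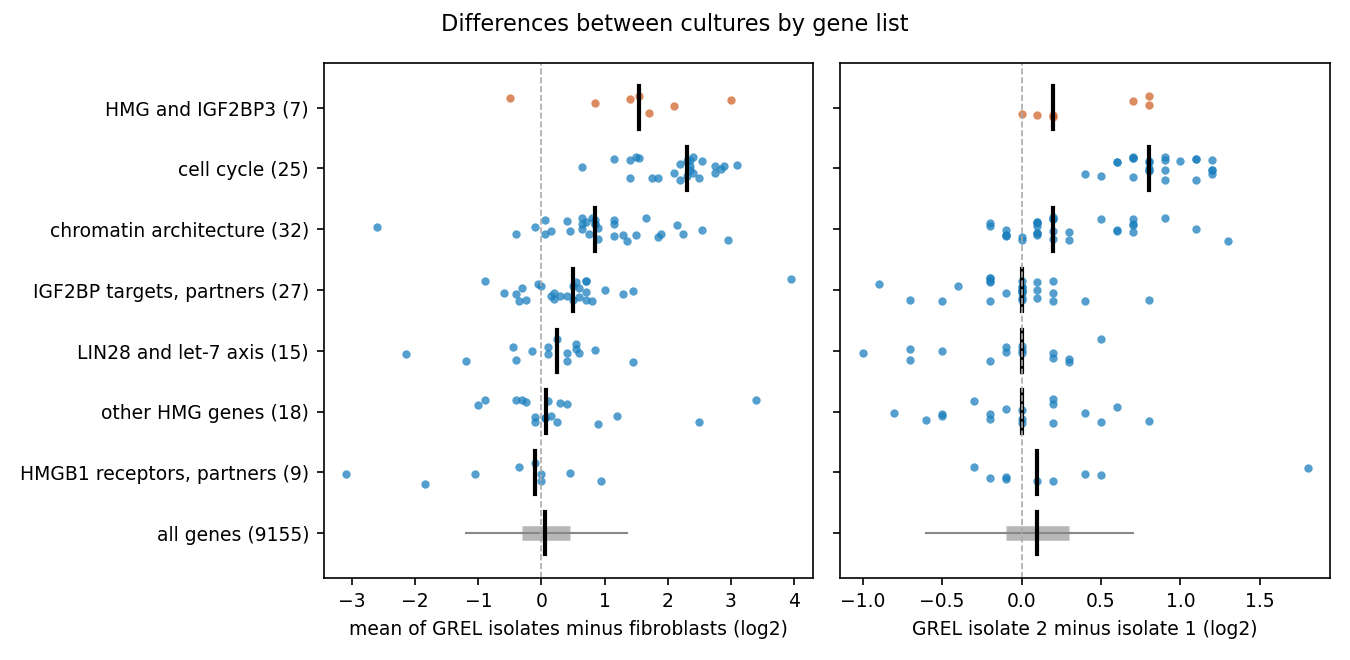
Left panel, GREL mean (2 isolates) minus fibroblasts, and right panel, isolate 2 minus isolate 1, both on the log2 scale, for each measured gene (points, spread vertically at random) of 7 groups, each followed by its gene count, with a black bar at the median. For all genes the grey bar spans the percentiles 25 to 75 and the line 5 to 95. The cell cycle genes lie highest in both panels, with medians of 2.30 and 0.8, and the 7 HMG and IGF2BP3 genes have medians of 1.55 and 0.2.

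Limma over all 24016 probe sets, with Benjamini-Hochberg adjustment, called no probe set, 0 higher and 0 lower, which is 0.00% in either direction; with p unadjusted, 2354 were higher and 2666 lower at p under 0.05. It therefore called no gene of these lists. At an unadjusted p under 0.05 it gave 3 higher and 0 lower for the cell cycle, 13 and 2 for chromatin structure, 3 and 0 for the other HMG genes, 11 and 1 for the IGF2BP targets and partners, 3 and 0 for the let-7 axis and 0 and 2 for the HMGB1 receptors. These counts take 1 probe set per gene, and over all 9155 genes they were 1174 higher and 1012 lower. The methods' test called 0 as well (186 higher and 208 lower unadjusted), but over 20503 probe sets only. It needs a spread between the isolates, so the 3513 probe sets whose isolates round to the same value were left out. The brightest IGF2BP3 probe set is among those. A robust prior in limma called 571 and 618 probe sets, and 295 higher and 239 lower of the 9155 genes. It gave 7 higher and 1 lower among the IGF2BP targets and partners, 2 higher in the let-7 axis and 1 and 1 in chromatin structure. None was called in the cell cycle, the other HMG genes or the HMGB1 receptors. The spread in each of these tests comes from the isolates alone.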

How the data were processed

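Each of 3 cultures (2 GREL isolates, 1 fibroblast culture) was read on 1 GeneChip Bovine Genome Array. The authors deposited log2 values from RMA background subtraction and quantile normalization, for which the submitters' notes name Partek 6.5. These are rounded to steps of 0.1 and have no detection calls. The table holds 24128 probe sets, and its 112 array controls were dropped. Symbols came from an older platform annotation, in which 13292 probe sets had 1 symbol, 86 had several and 10638 were unnamed here. For 13263 of them the identifier was found in the RefSeq gene table. The genome build was not given in the sources used here, so no coordinates are printed.

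Members and lists were chosen with earlier results of these data known. All members were named, with up to 2 highest and 2 lowest genes of each list above the background level in a group, and IGF2BP1, IGF2, MYC and other HMGN genes outright. Genes named after their values were seen are marked so in the text. Counts used log2 differences over 3-fold in both isolates. Limma 3.58.1 (R 4.3.3, lmFit and eBayes, 1 residual degree of freedom) was run over all probe sets at an adjusted p under 0.05. On simulated data only its mean fitted differences were checked, not its calls. Nothing shows the fibroblast spread, so p-values measure the spread between isolates, which the number of arrays limits. Python 3.11.15 with pandas 2.3.3 did the rest. Alternatives were the mean over probe sets, repeated quantile normalization, median centring, a filter on dim probe sets, other fold limits and background levels, other priors, the methods' test and leaving out either isolate.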

Additional observations from a re-analysis of the deposited data

How the results depend on the processing

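The number of the 7 genes over 3-fold higher was 3 with both isolates, and 5 without isolate 1 (HMGB2 and HMGN2 being added) and 3 without isolate 2. It was 1 (IGF2BP3) at a 5-fold limit. HMGB1 missed 3-fold in at least 1 isolate with the mean over probe sets, with repeated quantile normalization and with arrays centred on the median, which left 2 genes each (HMGA1 and IGF2BP3). The filter on dim probe sets removed IGF2BP3, and 2 of 6 genes remained (HMGA1 and HMGB1), against 3.44% of the 960 genes it kept. The median log2 difference was 1.80 without isolate 1 and 1.20 without isolate 2. No member changed direction under any alternative run, and the mean over probe sets lowered the difference of IGF2BP3 from 3.0 to 2.35. In limma a robust prior gave 571 higher and 618 lower in place of 0. At a 2-fold limit 10 genes of chromatin structure, 3 IGF2BP targets and partners and 1 of the let-7 axis were higher. With the mean over probe sets 0 IGF2BP targets and partners were over 3-fold higher, since the probe sets of IGF2 disagree. Causes were not tested. Members above background in the fibroblasts were 3 at the main level, 5 at the lower one and at the 90th percentile, and 6 at the array median. No paired analysis was possible because the fibroblasts are 1 culture.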
